A study of Mus musculus with 6 samples.

Results

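The 5 genes that encode the subunits of the transcription factor NF-kB (Nfkb1, Nfkb2, Rel, Rela and Relb) and 5 genes grouped here as its feedback inhibitors (Nfkbia, Nfkbib, Nfkbie, Tnfaip3 and Bcl3) were described in tumor-infiltrating Tregs. They were taken by gene symbol from the 15319 genes of the count table, and all 10 were found. RNA-Seq gave 3 libraries from WT mice and 3 from cKO mice. WT mice carried Foxp3Yfp-Cre, in which Cre recombinase is made together with YFP by cells that express Foxp3, and cKO mice carried the same allele with Xrcc6flox/flox, which removes the DNA-repair protein Ku70 from Foxp3-expressing cells. In both groups, LLC cells, a mouse lung carcinoma line, were given through the tail vein to animals aged 8 to 10 weeks. Tregs were sorted from the tumors on day 21. The study's methods give the gate CD4+CD25+YFP+ for Tregs of spleen and lymph nodes, and state none for those of tumors. The labels do not say whether each library came from a separate mouse, so the p-values measure only the spread between these libraries, which may be technical. The fitted models also draw the spread of each gene toward that of the other genes. The comparison of cKO with WT asks how the loss of Ku70 alters gene expression in Tregs inside lung tumors.

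NF-kB proteins act as dimers that wait in the cytoplasm, bound by inhibitors of the IkB family. In the canonical pathway the IKK kinase complex marks IkB for destruction and dimers with RelA or c-Rel enter the nucleus, while in the noncanonical pathway the kinase NIK drives the processing of the Nfkb2 product, which frees dimers with RelB. Several inhibitors are themselves NF-kB target genes, which closes a negative feedback loop, and c-Rel and RelA are known for their part in the development and identity of Tregs.

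The libraries had total counts of 19032620 to 23159815. WT replicate 2 stood apart from the others: it had 11513 genes with a count, against 14442 to 14737 in the other 5, and its highest correlation with another library across genes, on a log2 scale, was 0.848, against at least 0.981. Xrcc6 lay between 20.9 and 63.1 CPM (the gene's count relative to the library total, with totals scaled by edgeR's TMM method) in the WT libraries and between 3.51 and 5.24 CPM in the cKO libraries. Foxp3, which defines the cells, was at 150 to 241 CPM and 189 to 282 CPM. Of the 8 genes in a list of Treg identity, 4 had positive and 4 negative log2 fold changes of cKO over WT, their sum did not separate the groups, and only Ctla4, a checkpoint receptor, did not overlap, at 1247 to 1395 CPM in WT and 875 to 1236 CPM in cKO. Here and below, values by library stand in the order of replicates 1, 2 and 3. Among the markers of other cells, the 8 of macrophages and dendritic cells summed to 165, 626 and 606 CPM in the WT libraries and 209, 423 and 819 CPM in the cKO libraries. The sums for 7 neutrophil, 5 B cell, 4 measured CD8 T and NK cell, 8 epithelial, endothelial and stromal and 4 red blood cell markers reached at most 49.5, 47.9, 21.3, 113 and 25.5 CPM in any library. No marker was at 0 in all 6 libraries, and none of these sums separated the groups. Single markers did, at low levels: the neutrophil genes S100a9 (at most 0.208 CPM in WT, 1.11 to 1.91 CPM in cKO) and Retnlg (at 0 in all WT libraries, 0.625 to 1.51 CPM in cKO), the macrophage and dendritic cell gene Itgax (at most 1.25 CPM and 1.67 to 2.21 CPM) and the red blood cell gene Hbb-bs (at most 2.92 CPM and 3.53 to 11.1 CPM) were higher in every cKO library. Ctla4 and these 4 were named after their values were seen, and the part of such cells in the results was not tested. Over all genes, 5.01% had every cKO library above every WT library, and 3.23% had every one below. The other neutrophil markers overlapped. S100a8, Ly6g and Mmp9 had positive log2 fold changes, and Csf3r (-0.08) and Cxcr2 (-0.58) had negative ones. In bulk RNA, a smaller share of cells of one type and less RNA per cell cannot be told apart.

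Where NF-kB target genes include the family's own members, the proximal promoter can hold the DNA sequence that the dimers bind, so promoter windows were read for that sequence. The windows came from RefSeq (GRCm38.p6) and ran from 250 bases before to 50 bases after an annotated start site. They were found for 8 of the 10 genes, with 2 windows for Tnfaip3 and 3 for Nfkb2. Nfkb1 and Relb had no entry. The κB consensus searched was 10 bases long: 3 G, a purine, 2 bases of any kind, 2 pyrimidines and 2 C, on either strand, with overlapping matches kept. The windows of the most abundant inhibitors, Nfkbia at chr12:55492598-55492897 (minus strand) and Tnfaip3 at chr10:19015361-19015660 (minus strand, the second window), and of the subunits Nfkb2 at chr19:46304487-46304786 (plus strand, the first window) and Rel at chr11:23770920-23771219 (minus strand), are shown 5′ to 3′ because each held a match. Capitals mark the bases of a match.
Nfkbia: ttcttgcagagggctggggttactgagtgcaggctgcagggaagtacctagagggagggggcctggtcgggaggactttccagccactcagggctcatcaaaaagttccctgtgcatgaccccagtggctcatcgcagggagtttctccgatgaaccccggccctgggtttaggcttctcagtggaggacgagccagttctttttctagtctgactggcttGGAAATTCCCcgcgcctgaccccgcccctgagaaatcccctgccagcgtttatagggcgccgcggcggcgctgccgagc
Tnfaip3: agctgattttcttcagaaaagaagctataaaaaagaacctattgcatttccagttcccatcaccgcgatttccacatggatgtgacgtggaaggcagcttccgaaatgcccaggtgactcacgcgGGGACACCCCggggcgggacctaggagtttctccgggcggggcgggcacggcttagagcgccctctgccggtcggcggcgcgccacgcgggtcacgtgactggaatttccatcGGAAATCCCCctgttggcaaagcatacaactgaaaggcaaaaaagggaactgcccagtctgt
Nfkb2: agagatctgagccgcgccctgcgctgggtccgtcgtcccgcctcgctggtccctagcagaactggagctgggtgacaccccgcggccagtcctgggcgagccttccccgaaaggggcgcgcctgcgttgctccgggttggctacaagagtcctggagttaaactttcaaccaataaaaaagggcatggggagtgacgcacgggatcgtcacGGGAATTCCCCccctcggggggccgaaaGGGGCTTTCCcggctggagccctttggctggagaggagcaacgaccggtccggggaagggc
Rel: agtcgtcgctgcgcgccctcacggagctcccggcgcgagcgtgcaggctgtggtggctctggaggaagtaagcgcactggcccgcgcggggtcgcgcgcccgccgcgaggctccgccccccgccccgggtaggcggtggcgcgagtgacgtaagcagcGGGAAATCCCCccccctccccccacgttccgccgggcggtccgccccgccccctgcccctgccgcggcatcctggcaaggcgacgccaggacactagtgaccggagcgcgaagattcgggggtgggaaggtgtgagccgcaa

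With the first transcribed base counted as 1, and bases before it counted back from -1, the Nfkbia match began at base -29 and read GGGAATTTCC on the opposite strand. Tnfaip3 had matches that began at bases -125 and -12, the nearer of which read GGGGATTTCC on the opposite strand. In the first Nfkb2 window, overlapping matches began at bases -39 and -38 and a further one, GGGGCTTTCC, at base -11. The second window held GGGACATTCC on the opposite strand, beginning at base -236, and GGGACTTTCC at base 11, a site that the third window also covered. In Rel the same stretch matched on both strands, as GGGAAATCCC and GGGATTTCCC, beginning at base -92, and GGGGATTTCC overlapped it by all but 1 base. Nfkbie held GGGGGATTCC at base -106 and Bcl3 held GGGAAGTCCC at base 3. The windows of Rela and Nfkbib and the first of Tnfaip3 held no match, which says only that these letters were not in those windows.

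**Figure D1:**
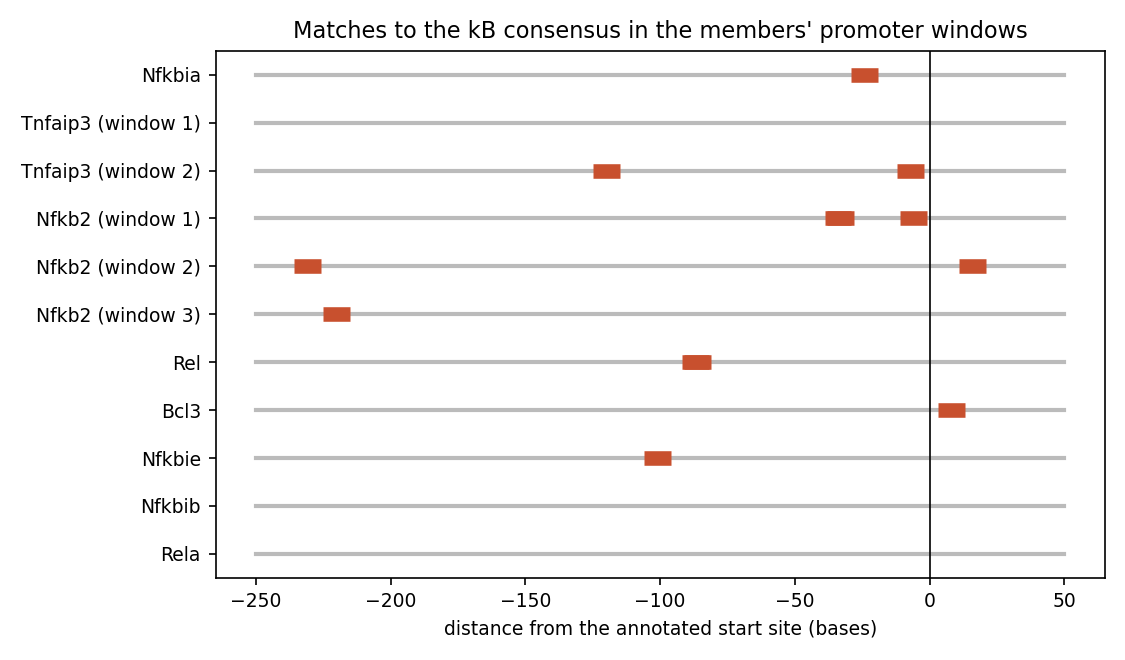
Matches to the κB consensus in the promoter windows of 8 genes. The x axis is the distance from the annotated start site in bases, each grey line is a window of 300 bases, and orange blocks are matches on either strand; 8 of the 11 windows held a match, within 250 bases before to 50 bases after the start site.

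At least 1 match was therefore found for 6 of the 8 genes, and matches at 2 or more start positions for 3 of them (Nfkb2, Rel and Tnfaip3). Among the 12030 genes of the count table with a window, 12.3% had a match and 1.82% had matches at 2 or more start positions, and of all 32851 windows of this length 8.46% had one. These are counts of letters in the reference genome and not measurements of binding in these Tregs. The 6 genes with a match included the most abundant members, Nfkbia and Tnfaip3, and members of low level, Bcl3 and Nfkbie.

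All 10 members were expressed in all 6 libraries, with 1604 to 93002 counts per library, and all 10 also passed a filter on low counts (edgeR's filterByExpr, minimum count 10). To compare levels between genes, CPM were divided by the length in kb of the merged exons that GENCODE gives for each gene on GRCm38. Nfkbia, which encodes IkBα, the inhibitor that is degraded and remade most rapidly, stood first at a mean of 1712 CPM per kb over the 6 libraries. Tnfaip3, which encodes a ubiquitin-editing enzyme that shuts off signalling upstream of IKK, followed at 515 CPM per kb. The other 8 members reached at most 96.4 CPM per kb in any library. The subunits came next in the order Nfkb2 (70.8 CPM per kb), Rela (63.5), Rel (44.8), Relb (35.5) and Nfkb1 (21.5), interleaved with the inhibitors Nfkbib (54.1), Bcl3 (46.8) and Nfkbie (34.8). Only the steps from Nfkbia to Tnfaip3, from Tnfaip3 to Nfkb2 and from Nfkbie to Nfkb1 were larger than the spread over libraries, and the other neighbours in this order overlapped. Nfkb1, last in this order, had the longest merged exons of the 10, 12061 bases against 1610 for Nfkbia, and merged exons can be longer than any single transcript, so the levels per kb are approximate.

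**Figure D2:**
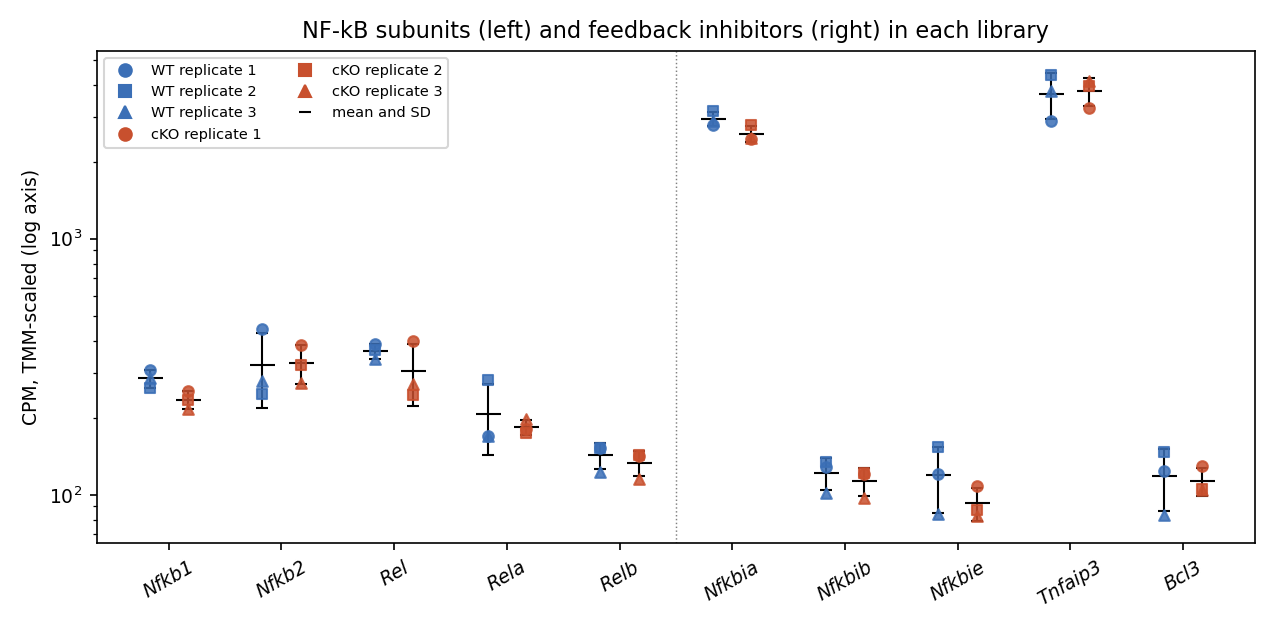
CPM after TMM scaling of each NF-kB subunit and feedback inhibitor in the 3 WT (blue) and 3 cKO (orange) libraries, on a log axis. Markers give the replicate number and the horizontal line and bar give the group mean and SD; CPM are not divided by gene length, and the WT and cKO points overlap for every gene except Nfkb1, at 260 to 308 CPM in WT and 217 to 254 CPM in cKO.

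Across the 6 libraries none of the 10 members differed between cKO and WT at an adjusted p under 0.05 from edgeR's quasi-likelihood test, nor did any at an unadjusted p under 0.05. Over all 15315 genes tested, 0% passed the adjusted and 1.81% the unadjusted threshold. DESeq2 and limma's voomWithQualityWeights also gave 0 members at the adjusted threshold, and each gave 1 at the unadjusted one, Nfkb1, where 2.01% of all genes passed by DESeq2 and 3.55% by voomWithQualityWeights. The members' log2 fold changes of cKO over WT ran from -0.36 for Nfkbie to 0.03 for Tnfaip3, and every adjusted p was at least 0.984. The sign was negative for 8 of 10 members with a median of -0.13, while 45.5% of all genes were negative with a median of 0.04. With library size alone as the scaling it was negative for 10 of 10 (median -0.21), where 51.2% of all genes were negative. Without WT replicate 2 it was negative for 7 of 10 (median -0.09), where 51.4% of all genes were negative. Of the genes with a mean of at least 50 CPM, 46.5% were negative in the main fit. That share was 57.9% with library size alone and 46.6% without WT replicate 2.

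Nfkb1 encodes a precursor that is cut to the subunit with which RelA and c-Rel most often pair, and lies at chr3:135584655-135691547 on the minus strand. Gm43430, an annotated gene that is absent from the count table, overlaps it on the same strand. Nfkb1 was at 308, 260 and 285 CPM in the WT libraries and 254, 234 and 217 CPM in the cKO libraries. It was the only member whose groups did not overlap, with the highest cKO library just under the lowest WT library. Over all genes, 3.23% had every cKO library lower (5.01% higher, 8.24% in either direction), as did 1.84% of the 3804 genes with a mean of at least 50 CPM. The WT mean was 285 ± 23.7 CPM and the cKO mean 235 ± 18.6 CPM (SD, n = 3), and the fitted log2 difference was -0.28 (95% interval -0.62 to 0.07, standard error 0.15). The unadjusted p was 0.0984 by edgeR. An exact two-sided permutation test of the 6 values returned p = 0.1, the smallest that 3 against 3 allow. Without WT replicate 2 the log2 fold change was -0.34 (95% interval -0.67 to -0.01), with p values of 0.0443 unadjusted and 0.997 adjusted by edgeR. In that fit 3.01% of genes passed the unadjusted threshold (1.5% as lower in cKO) and 0.00654% the adjusted one, and 7.53% had every cKO library below the WT libraries left. By DESeq2 on all 6 libraries the unadjusted p for Nfkb1 was 0.0499 and the adjusted p 0.999, where 0.0131% of genes passed adjusted. By DESeq2 without WT replicate 2 Nfkb1 again passed unadjusted, as did 2.42% of all genes.

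Rel, which encodes c-Rel and lies at chr11:23736847-23770970 (minus strand), spanned 1.63-fold over the cKO libraries and 1.14-fold over the WT libraries, a difference in spread that was not tested. Its levels were 387, 367 and 339 CPM in the WT libraries and 399, 245 and 270 CPM in the cKO libraries. One cKO library, replicate 1, was the highest of all 6, and the other 2 were the lowest of all 6. The means were 364 ± 24.3 and 305 ± 82.4 CPM (SD, n = 3), and the log2 fold change was -0.26 (95% interval -0.75 to 0.24, standard error 0.21, unadjusted p = 0.264 by edgeR). Leaving out cKO replicate 1 gave -0.50 (unadjusted p = 0.0307 by edgeR, in a fit where 1.2% of all genes were under 0.05), leaving out cKO replicate 2 gave -0.12 (unadjusted p = 0.622 by edgeR), and leaving out WT replicate 2 gave -0.26. Its adjusted p was 0.763 or above in all 13 alternative fits.

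Rela, the gene of the main activating subunit RelA at chr19:5637483-5648130 (plus strand), had a WT mean that depended on 1 library. It was at 170, 279 and 169 CPM in the WT libraries and 181, 174 and 198 CPM in the cKO libraries. WT replicate 2 was above all other libraries, which lay between 169 and 198 CPM. The means of 206 ± 63.5 and 184 ± 12.3 CPM (SD, n = 3) gave a log2 fold change of -0.16 (95% interval -0.68 to 0.36, unadjusted p = 0.487 by edgeR). Without WT replicate 2 the sign turned, to 0.12 (95% interval -0.19 to 0.43, unadjusted p = 0.406 by edgeR), and both remaining WT libraries were then below all 3 cKO libraries, as were those of 8.48% of all genes.

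Nfkb2 and Relb encode the partners of the noncanonical pathway. Nfkb2 lies at chr19:46304320-46312385 on the plus strand and was at 442, 247 and 278 CPM in the WT libraries and 385, 321 and 274 CPM in the cKO libraries. In both groups replicate 1 was the highest. The WT libraries spanned 1.79-fold and held the highest and the lowest value of all 6. The means of 322 ± 105 and 327 ± 56.0 CPM (SD, n = 3) gave a log2 fold change of 0.02 (95% interval -0.58 to 0.62, unadjusted p = 0.939 by edgeR), whose sign depended on the libraries and on the scaling: -0.14 without WT replicate 2, 0.32 without WT replicate 1 and -0.019 with library size alone. The deposited values of Nfkb2 were not whole numbers in any library, as when shared reads are divided by an estimate. Psd, at 3.65 to 5.24 CPM, overlaps it on the other strand, and the strand setting of the counting is not given in the sources used here. Relb, at chr7:19606217-19629438 (minus strand), spanned 1.24-fold in WT and 1.23-fold in cKO, at 152, 152 and 123 CPM in the WT libraries and 141, 143 and 116 CPM in the cKO libraries. In each group replicate 3 was lowest by a similar step, and the log2 fold change was -0.10 (95% interval -0.47 to 0.27, unadjusted p = 0.555 by edgeR).

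Among the inhibitors, Nfkbia at chr12:55489410-55492647 (minus strand) had the narrowest spread. It was at 2786, 3146 and 2891 CPM in the WT libraries and 2452, 2788 and 2480 CPM in the cKO libraries. The groups overlapped at a single point, where the highest cKO library, at 2788 CPM, was just above the lowest WT library, at 2786 CPM. The means of 2941 ± 185 and 2573 ± 186 CPM (SD, n = 3) gave a log2 fold change of -0.19 (95% interval -0.70 to 0.32, standard error 0.22). The unadjusted p was 0.403 by edgeR and 0.145 by DESeq2, and p was 0.2 in the exact two-sided permutation test. Without WT replicate 2 the log2 fold change was -0.14.

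Tnfaip3 lies at chr10:19000910-19015657 on the minus strand and was at 2876, 4371 and 3788 CPM in the WT libraries and 3251, 3930 and 4119 CPM in the cKO libraries. The cKO libraries lay inside the range of the WT libraries, and replicate 1 was the lowest in each group. The means were 3678 ± 753 and 3767 ± 457 CPM (SD, n = 3), and the 95% interval of the log2 fold change ran from -0.60 to 0.66 (unadjusted p = 0.902 by edgeR). The summed level of a list of 16 genes that tissue dissociation can induce was also lowest in WT replicate 1 and highest in WT replicate 2. It was 15130, 26740 and 19980 CPM in the WT libraries and 19810, 17710 and 20030 CPM in the cKO libraries. This list, called immediate-early here, also holds the heat shock genes Hspa1a, Hspa1b and Dnajb1. Hspa1a, named after its values were seen, ran another way. It was at 2697, 1831 and 1820 CPM in the WT libraries and 3763, 1751 and 1609 CPM in the cKO libraries. WT replicate 1 and cKO replicate 1, lowest in Tnfaip3 within their groups, were also the libraries lowest in the macrophage and dendritic cell markers. The part of these genes or cells in the Tnfaip3 values was not tested.

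Nfkbie, the gene of IkBε at chr17:45555703-45563169 (plus strand), had the most negative log2 fold change of the 10. It was at 120, 153 and 84.4 CPM in the WT libraries and 108, 87.2 and 82.8 CPM in the cKO libraries. WT replicates 1 and 2 were above all cKO libraries and WT replicate 3 was below 2 of them. The means were 119 ± 34.4 and 92.7 ± 13.5 CPM (SD, n = 3), and the log2 fold change was -0.36 (95% interval -0.91 to 0.18, standard error 0.23, unadjusted p = 0.159 by edgeR). It was -0.15 without WT replicate 2 (unadjusted p = 0.444 by edgeR) and -0.56 without WT replicate 3 (unadjusted p = 0.0255 by edgeR, in a fit where 3.76% of all genes were under 0.05), and the lowest adjusted p in any fit was 0.689.

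The remaining inhibitors lie on chromosome 7. Nfkbib, which encodes IkBβ, at chr7:28758251-28767512 (minus strand), was at 128, 135 and 102 CPM in the WT libraries and 121, 122 and 97.1 CPM in the cKO libraries, so that replicate 3 was again lowest in both groups, as it was for Relb. Its log2 fold change was -0.10 (95% interval -0.49 to 0.29, unadjusted p = 0.557 by edgeR). Sirt2, at 55.4 to 137 CPM, overlaps it on the other strand, as does Ccer2. Bcl3, an atypical IkB protein that binds the homodimers of the processed subunits in the nucleus, lies at chr7:19808462-19822770 (minus strand), 179023 bases from Relb, and annotated antisense genes overlap it. It was at 124, 147 and 83.6 CPM in the WT libraries and 130, 105 and 104 CPM in the cKO libraries. The cKO libraries lay inside the WT range, with a log2 fold change of -0.06 (95% interval -0.59 to 0.46, unadjusted p = 0.783 by edgeR), and of 0.12 without WT replicate 2.

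**Figure D3:**
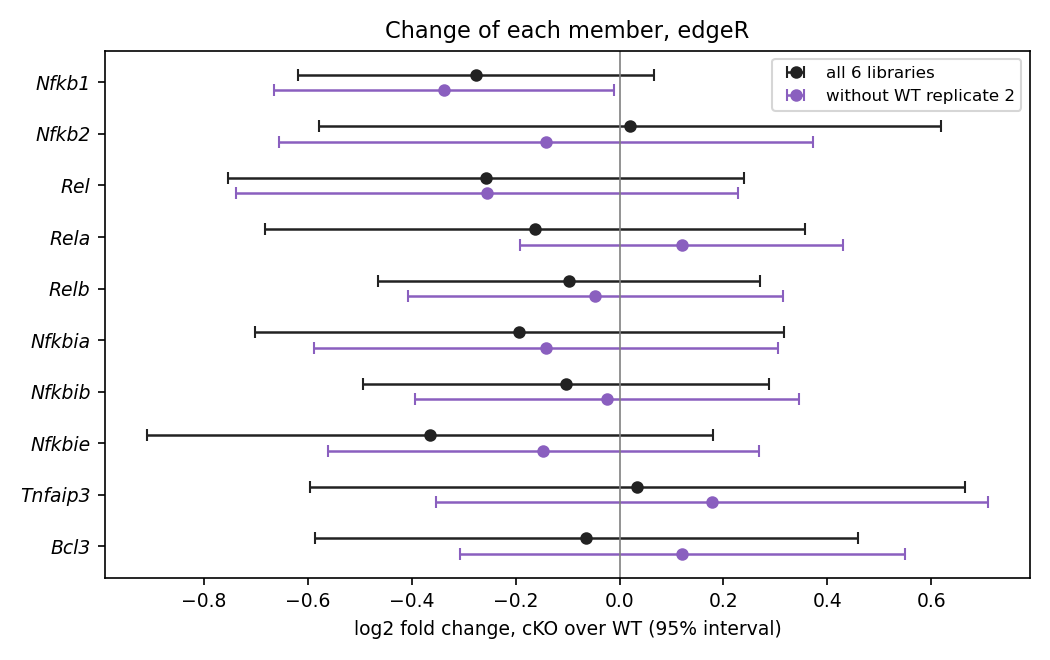
Log2 fold change of cKO over WT for each member from edgeR, with 95% intervals, for all 6 libraries (black) and without WT replicate 2 (purple). All intervals from 6 libraries cross 0; without WT replicate 2 only that of Nfkb1, from -0.67 to -0.01, does not, and the signs of Nfkb2, Rela and Bcl3 turn (those of Nfkb2 and Tnfaip3 also turn with library size alone as the scaling).

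WT replicate 2 was the highest WT library for 7 of the 10 members, all except Nfkb1, Nfkb2 and Rel, where 33.2% of genes with counts in the WT group had their highest WT value in that library, as did 42.4% of genes with a mean of at least 50 CPM. Its make-up of subunits was also unlike that of the other libraries. As a share of the summed CPM per kb of the 5 subunits, Rela made up 35.7% and Nfkb2 21.1% in WT replicate 2, while in the other 5 libraries Rela made up 20.6% to 31.0% and Nfkb2 28.0% to 36.0%. Rela led in WT replicate 2 and in cKO replicate 3, and Nfkb2 led in the other 4 libraries.

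By group, Nfkb2 made up 28.4 ± 7.42% of the subunit level in WT and 31.5 ± 2.38% in cKO, and Rela 27.3 ± 7.70% and 26.8 ± 3.89% (SD, n = 3). The shares of Rel were 19.9 ± 0.942% and 17.9 ± 2.93%, those of Relb 14.9 ± 0.455% and 15.2 ± 1.56%, and those of Nfkb1 9.64 ± 1.24% and 8.64 ± 0.347% (SD, n = 3). Every one of these pairs of groups overlapped. The ratio of the noncanonical genes Nfkb2 and Relb to Nfkb1, Rel and Rela, per kb, was 0.781 ± 0.226 in WT and 0.880 ± 0.116 in cKO (SD, n = 3), with the lowest value, 0.576, and the highest, 1.02, both in WT libraries. For each unit of summed subunit level there were 7.47 ± 0.936 units of Nfkbia in WT and 7.14 ± 1.04 in cKO, and 2.09 ± 0.527 and 2.35 ± 0.509 of Tnfaip3 (SD, n = 3). The balance of inhibitor to subunit transcripts therefore differed by less than the spread between replicates.

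**Figure D4:**
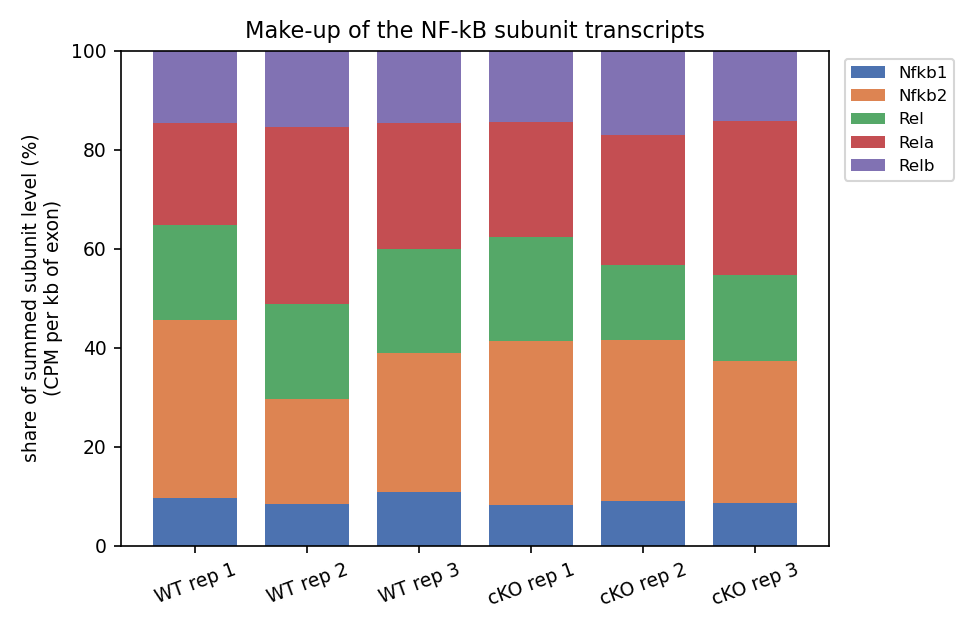
Share of each subunit in the summed level of the 5 NF-kB subunits, in percent, where the level is CPM per kb of merged exons, for each of the 6 libraries. Nfkb2 is the largest share in 4 libraries and Rela in WT replicate 2 (35.7%) and cKO replicate 3 (31.0%), while Nfkb1 is the smallest in all 6.

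The rest of the pathway was described by 5 lists with 76 genes, and the 16 genes of the immediate-early list were added. Of these 92 genes, 0 had an adjusted p under 0.05 in any fit. At an unadjusted p under 0.05 by edgeR there were 4, all lower in cKO, where 0.868% of all genes were lower at that threshold: Traf3 of the noncanonical branch, and the NF-kB target genes Lta, Cd83 and Cxcl10. WT replicate 2 was the highest library for each of the 4. Without that library 5 genes passed, of which only Lta was among the 4: Lta and Bcl2a1d were lower, and Ripk1, Map3k14 and Tnfrsf1a were higher. In that fit 3.01% of all genes passed. Cd83, Cxcl10, Bcl2a1d, Map3k14 and Tnfrsf1a, and below Tnip2, Gadd45b and Traf6, were named after their values were seen. The count was 11 without WT replicate 1, of which 1 was the immediate-early gene Fosb, where 5.71% of all genes passed. Leaving out cKO replicate 2 gave 2 genes (0.47% of all genes passed in that fit), and leaving out cKO replicate 3 gave 0 (0.425% of all genes).

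Traf3, which holds the NIK kinase at a low level in resting cells, was at 148, 221 and 138 CPM in the WT libraries and 136, 103 and 97.8 CPM in the cKO libraries. The groups did not overlap, with cKO replicate 1 just under the lowest WT library, and the log2 fold change was -0.59 (standard error 0.23, unadjusted p = 0.0343 and adjusted p = 0.984 by edgeR). It was -0.35 without WT replicate 2, with an unadjusted p of 0.0604 by edgeR. Lta, the gene of lymphotoxin alpha, was at 40.2, 69.4 and 43.8 CPM in the WT libraries and at 34.4, 31.0 and 27.8 CPM in the cKO libraries, again without overlap. Its log2 fold change was -0.72 (standard error 0.24, unadjusted p = 0.0183 and adjusted p = 0.984 by edgeR), and -0.44 without WT replicate 2 (unadjusted p = 0.0119 by edgeR). Over all genes, 3.23% had every cKO library below every WT library, and so did Tnip2, Cd83, Gadd45b and Cxcl10 of the pathway lists.

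None of the 18 genes of the IKK complex and TNF receptor adaptors had an unadjusted p under 0.05, with 11 negative and 7 positive (median -0.05), but 8 negative and 10 positive without WT replicate 2 (median 0.012). Ripk1, the receptor-bound kinase, had the smallest p of them: it was at 49.95, 16.3 and 50.03 CPM in the WT libraries and 62.5, 59.1 and 64.2 CPM in the cKO libraries. All cKO libraries were above all WT libraries, as they were for Traf6 of the same list and for 5.01% of all genes. The log2 fold change of Ripk1 was 0.68 (standard error 0.39, unadjusted p = 0.123 by edgeR), and without the low WT replicate 2 it was 0.31 (unadjusted p = 0.0336 and adjusted p = 0.997 by edgeR). Traf1, an adaptor and NF-kB target gene and the most abundant of the list by CPM, had a log2 fold change of -0.14.

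In the 17 other inhibitors and atypical IkB proteins, 11 were negative and 6 positive (median -0.08) and 0 passed the unadjusted threshold. Without WT replicate 1, 3 of them passed, where 5.71% of all genes did. Without WT replicate 3, 2 passed, where 3.76% of all genes did. Nfkbiz, the most abundant by CPM, had a log2 fold change of -0.08, and Pdlim2, which ends NF-kB activity in the nucleus, one of 0.33 (unadjusted p = 0.111 by edgeR). Among the 7 TNF receptors that activate NF-kB in Tregs, 6 were negative (median -0.20) and none passed. That direction rested on WT replicate 1: without it 3 were negative and 4 positive (median 0.028). Tnfrsf25 then passed the unadjusted threshold, as did 5.71% of all genes. Their summed level was 7407 CPM in WT replicate 1 and 3861 to 4864 CPM in the other 5 libraries, and WT replicate 1 was also the library highest in Nfkb1 and Nfkb2, a relation that was not tested. Tnfrsf25, with the smallest p of them, had a log2 fold change of -0.46, and of -0.05 without WT replicate 2. Of the 6 genes of the noncanonical branch, 4 had positive values (median 0.26, and 0.014 without WT replicate 2), but 4 of the 6 were receptors at no more than 2.49 CPM in any library, and 3 of these, Ltbr, Cd40 and Tnfrsf13c, were at 0 in WT replicate 2.

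The 28 NF-kB target genes outside the family had 18 negative and 10 positive values, with a median of -0.09, beside the median of 0.04 for all genes. Their direction also depended on single libraries: 13 were negative and 15 positive without WT replicate 1 (median 0.029), and 14 were negative and 14 positive without cKO replicate 3 (median -0.0072). Ltb, the most abundant by CPM, was at 721, 391 and 524 CPM in the WT libraries and 534, 677 and 541 CPM in the cKO libraries, with a log2 fold change of 0.10. The cKO libraries lay inside the range of the WT libraries. The median of the immediate-early list, with its heat shock genes, was -0.02, and 0.18 without WT replicate 2, where 14 of 16 were positive. It was -0.27 without WT replicate 1, where 14 of 16 were negative. Of them, Fosb had a log2 fold change of -0.60 and of -0.02 without WT replicate 2.

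**Figure D5:**
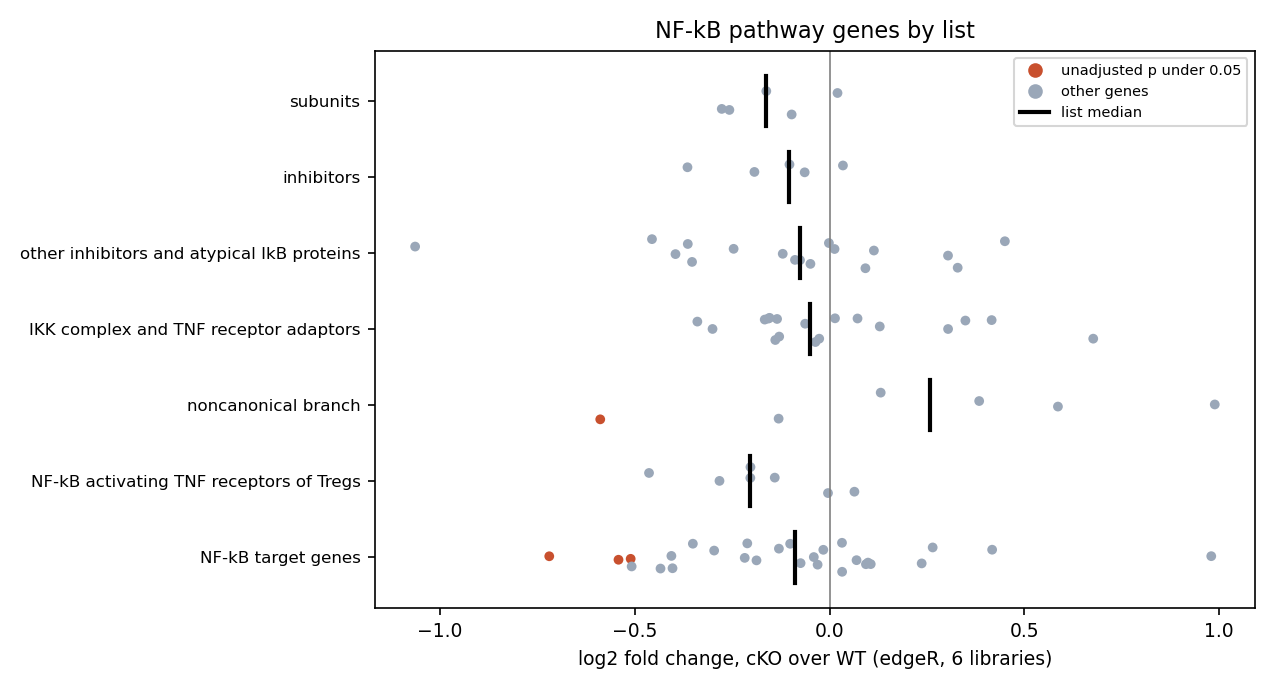
Log2 fold change of cKO over WT from edgeR (x axis) for the members and for the genes of 5 further lists of the NF-kB pathway (rows). Each point is a gene, orange where the unadjusted p was under 0.05, and black bars are list medians, from -0.20 for the TNF receptors to 0.26 for the noncanonical branch; 4 genes are orange and all lie left of 0.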

How the data were processed

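RNA from tumor-infiltrating Tregs was extracted with TRIzol, and libraries were made with a SMARTER mRNA-seq kit. Paired-end reads were produced on a BGI-Seq500. The submitters' processing notes name Bowtie2 (version 2.3.4.3), RSEM (version 1.3.1) and GRCm38, while the annotation and strand setting are not given in the sources used here. The deposited values are the expected counts of each gene symbol, with no normalization by the authors, and 21.6% of the values were not whole numbers (9 of the members' 60). They were rounded. Genes with at least 1 count (15315) were tested with edgeR (version 4.0.16) in R (version 4.3.3): TMM scaling, quasi-likelihood test, no covariate, Benjamini-Hochberg adjustment over all genes. Exact permutation tests of CPM were two-sided. Replicates differed beyond sampling noise, which libraries from a shared mouse or pool could do too. Each library was counted as 1 sample. Alternatives were DESeq2 (version 1.42.0), with and without WT replicate 2, limma (version 3.58.1) voomWithQualityWeights, median-of-ratios or library-size scaling, filterByExpr, the replicate number as a block and each library left out.

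The members and lists were chosen with earlier results of these data known, and no list was given a test of its own. A list of the design is not reported here. Besides the members, the text names from each pathway list the most abundant gene and the gene with the smallest p. The rule also names Junb (log2 fold change -0.32) and Tnfrsf4 (-0.28). Gene positions came from GENCODE vM21. The scripts were tested on simulated data.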

Additional observations from a re-analysis of the deposited data

How the results depend on the processing

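The median log2 fold change of the 10 members was negative in all 13 alternatives, from -0.24 to -0.06, and the signs of Nfkb1, Rel, Relb, Nfkbia, Nfkbib and Nfkbie were negative in all 13. No member had an adjusted p under 0.05 in any of them. At an unadjusted p under 0.05, 1 member passed with DESeq2 (Nfkb1, with 2.01% of all genes), with voomWithQualityWeights (Nfkb1, with 3.55%) and with DESeq2 without WT replicate 2 (Nfkb1, with 2.42%). Leaving out a library gave 0 to 1 (Nfkb1 without WT replicate 2, Nfkbie without WT replicate 3 and Rel without cKO replicate 1, with 3.01%, 3.76% and 1.2% of all genes). Over all genes, those past an adjusted p of 0.05 numbered 2 with DESeq2, 3 with DESeq2 without WT replicate 2, and 0 to 1 in edgeR with a library left out (1 without WT replicate 2).

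The sign turned for Nfkb2 with library size only (-0.019), voomWithQualityWeights (-0.068) and DESeq2 without WT replicate 2 (-0.14), and its log2 fold change was lowest without WT replicate 2 (-0.14) and highest without WT replicate 1 (0.32) when a library was left out (-0.074 without WT replicate 3 and -0.11 without cKO replicate 1). It turned for Rela with voomWithQualityWeights (0.11), without WT replicate 2 (0.12, and 0.12 by DESeq2), with values from -0.28 to 0.12 when a library was left out. Bcl3 turned with voomWithQualityWeights (0.15) and without WT replicate 2 (0.12, and 0.12 by DESeq2), with values from -0.26 to 0.12 when a library was left out. Tnfaip3 turned with library size only (-0.047), and with a library left out it ran from -0.12 (without WT replicate 1; -0.035 without cKO replicate 3) to 0.18. The cause was not tested.

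The replicate numbers showed no clear pairing of the samples. The deviations of same-numbered libraries from their group means correlated at 0.03, -0.16 and 0.19 across 9647 genes, and not every library correlated best with its own number. With 3 libraries in each group, and WT replicate 2 unlike the others, this check cannot exclude a pairing. With the replicate number as a block, genes at an unadjusted p under 0.05 went from 277 to 85 and those among the 92 pathway and immediate-early genes from 4 to 2, while 0 members passed. That count over all genes was 140 with filterByExpr, 543 with voomWithQualityWeights, and 65 (without cKO replicate 3) to 874 (without WT replicate 1) with a library left out; DESeq2 gave 212 lower and 95 higher, against 133 and 144 by edgeR. Among the 92 it was 11 (1 of them immediate-early) without WT replicate 1, 2 without cKO replicate 2, 0 without cKO replicate 3 and 7 by DESeq2 without WT replicate 2. The shares of all genes in these fits were 5.71%, 0.47%, 0.425% and 2.42%. With 3 libraries in each group, the widest 95% interval of a member (Tnfaip3) spanned -0.60 to 0.66 on the log2 scale, so the data do not exclude a change of that gene inside it.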
